A study of Mus musculus with 38 samples.

Results

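Krt8 and Krt18, the genes of keratins 8 and 18, were followed across all 38 liver segments of a GeoMx spatial transcriptomics experiment. They were chosen by name and are 2 of the 10547 genes in the deposited tables, and both were measured in every segment. Keratins 8 and 18 form the intermediate filaments of simple epithelia. In the liver they are the keratin pair of hepatocytes, while cholangiocytes, the cells that line bile ducts, carry them together with keratins 7 and 19. A type II chain (keratin 8) pairs with a type I chain (keratin 18), and a chain without its partner is degraded. DDC is a compound that injures bile ducts and is a classic means of inducing Mallory-Denk bodies, which are aggregates of misfolded keratin 8 and 18 with ubiquitin, p62 (Sqstm1) and heat shock proteins in hepatocytes.

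The mice were on a C57BL/6 background and 6 to 8 weeks old. WT mice were compared with Trail.mye mice, in which a floxed Tnfsf10 allele (the gene of the death ligand TRAIL, derived from a knock-out first allele) was deleted by Cre under the myeloid Lyz2 promoter. The targeted gene was not analysed here, so the deletion was not checked in these segments. Both genotypes received 3 rounds of 5 days of a control (CON) diet or a diet with 0.1% DDC with 3 days of chow between rounds, and the experiment ended on day 22. In GeoMx, ultraviolet light releases barcodes of hybridised probes from a chosen segment of a fixed tissue section, and the barcodes are counted by sequencing. Segments stained for pan-cytokeratin (PanCK+) or the macrophage protein IBA1 (IBA1+) were collected from 23 regions of interest (ROIs). PanCK+ segments numbered 3 in WT CON, 4 in WT DDC, 4 in Trail.mye CON and 5 in Trail.mye DDC mice. Periportal IBA1+ segments numbered 2, 4, 4 and 5 in the same order, and parenchymal IBA1+ segments 1, 2, 2 and 2. The mouse behind a segment is not named in the labels. Since several segments may come from 1 mouse, p-values below measure the spread between segments and are too small to stand for mice. Groups are described by signal per segment, and fewer cells of a type and less RNA per cell cannot be told apart.

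Total counts ran from 20319 to 836971 per segment. They were 158220 or more in the Trail.mye DDC periportal segments, whereas no WT segment exceeded 106664. A count of 1 is the lowest value in the tables and made up 27.2% of all values. Levels are given as Q3-normalized counts, in which each segment was scaled to the same 75th percentile over genes (10.5). A single count was worth between 0.131 (Trail.mye DDC PanCK+ segment of ROI 35) and 5.25 on that scale. The value of 5.25 occurred in WT segments only. There the 75th percentile stood for very few counts, so that the scale factor could move only in coarse steps. The negative control probe lay between 1.40 and 6.02. Krt8 was above it in 38 of 38 segments and Krt18 in 37 of 38. The exception was the WT DDC periportal IBA1+ segment of ROI 11, where Krt18 was at 1 count. The class labels were set against their markers. The summed level of 10 cholangiocyte markers was 540 to 2198 in PanCK+ segments and 38.1 to 378 in IBA1+ segments, and that of 10 macrophage markers 49.0 to 165 and 352 to 1150. The 9 measured hepatocyte markers summed to 1098 to 13773 in IBA1+ segments and to 922 to 7847 in PanCK+ segments. Hepatocyte transcripts were therefore present in all classes and exceeded the macrophage sum in all 22 IBA1+ segments. They also exceeded the cholangiocyte sum in every PanCK+ segment except that of ROI 9 (1616 against 1626).

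The genes lie side by side on chromosome 15 in RefSeq's mouse assembly GRCm38.p6, which corresponds to mm10. Krt8 spans chr15:101996711-102004342 on the minus strand and Krt18 chr15:102028216-102032026 on the plus strand, so that they point away from each other across 23.9 kb (23873 bases). Because both were called higher together in 4 of the 5 diet contrasts below, the starts of both are shown, each from 250 bases before to 30 bases after the annotated start and read 5′ to 3′ on the gene's own strand. Capitals mark matches to the TATA box core TATAA on either strand. Krt8 lies on the minus strand (chr15:102004313-102004592) and Krt18 on the plus strand (chr15:102027966-102028245).
Krt8: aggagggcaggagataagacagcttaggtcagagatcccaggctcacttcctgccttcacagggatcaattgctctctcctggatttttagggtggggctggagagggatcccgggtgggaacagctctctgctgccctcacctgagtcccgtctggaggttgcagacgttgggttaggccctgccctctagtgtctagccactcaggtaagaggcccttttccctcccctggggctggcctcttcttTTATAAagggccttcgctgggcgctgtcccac
Krt18: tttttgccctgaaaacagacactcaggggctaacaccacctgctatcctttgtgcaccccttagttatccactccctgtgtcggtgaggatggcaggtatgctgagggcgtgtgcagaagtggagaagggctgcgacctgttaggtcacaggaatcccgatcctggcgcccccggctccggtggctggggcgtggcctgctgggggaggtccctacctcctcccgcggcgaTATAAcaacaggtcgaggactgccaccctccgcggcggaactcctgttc
Both windows held the core. In Krt8 it overlapped itself on both strands (a plus-strand match from 1 base before the start and a minus-strand match from 2 bases before), and in Krt18 it began 19 bases before the start. Of 32817 RefSeq windows of the same length, 24% held TATAA on either strand. The GC box core GGGCGG (34.7% of windows, both strands) and the AP-1 site TGAGTCA (4.95%) did not occur in either window. These are matches of letters and no evidence of binding. A pseudogene of Krt8 (Krt8-ps, chr7:23357094-23358779) is annotated, and the sources used here do not say if the Krt8 probe also binds its transcript.

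Krt8 was highest in the parenchyma of DDC-fed WT mice and lowest in IBA1+ segments of control diet-fed Trail.mye mice. Group means of its Q3-normalized count were, from the highest, 407 ± 55.2 (SD, n = 2) in WT DDC parenchymal IBA1+ segments, 249 ± 60.1 (SD, n = 4) in WT DDC PanCK+ segments, 211 ± 67.5 (SD, n = 5) in Trail.mye DDC PanCK+ segments and 141 ± 26.6 (SD, n = 2) in Trail.mye DDC parenchymal IBA1+ segments. WT DDC periportal IBA1+ segments followed at 92.3 ± 47.0 (SD, n = 4) and Trail.mye DDC ones at 59.7 ± 16.1 (SD, n = 5). Every control diet group had a lower mean than every DDC group, from 50.9 ± 21.7 (SD, n = 4) in Trail.mye PanCK+ segments and 50.2 ± 17.6 (SD, n = 3) in WT PanCK+ segments down to 36.8 (1 segment) in WT parenchymal, 26.3 ± 7.43 (SD, n = 2) in WT periportal, 14.4 ± 6.28 (SD, n = 2) in Trail.mye parenchymal and 8.04 ± 4.23 (SD, n = 4) in Trail.mye periportal IBA1+ segments. Between neighbours in this order the segments overlapped except at 3 steps, namely between the highest and the next group, between WT parenchymal and WT periportal IBA1+ segments on the control diet, and between the latter and Trail.mye parenchymal IBA1+ segments.

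Krt18 gave a similar order, with group means from 228 ± 70.0 (SD, n = 2) in WT DDC parenchymal IBA1+ segments to 11.7 ± 5.67 (SD, n = 2) in Trail.mye CON parenchymal IBA1+ segments. The highest 8 groups came in the same order for both genes. For Krt18 the segments of each group overlapped with those of the next at every step.

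**Figure D1:**
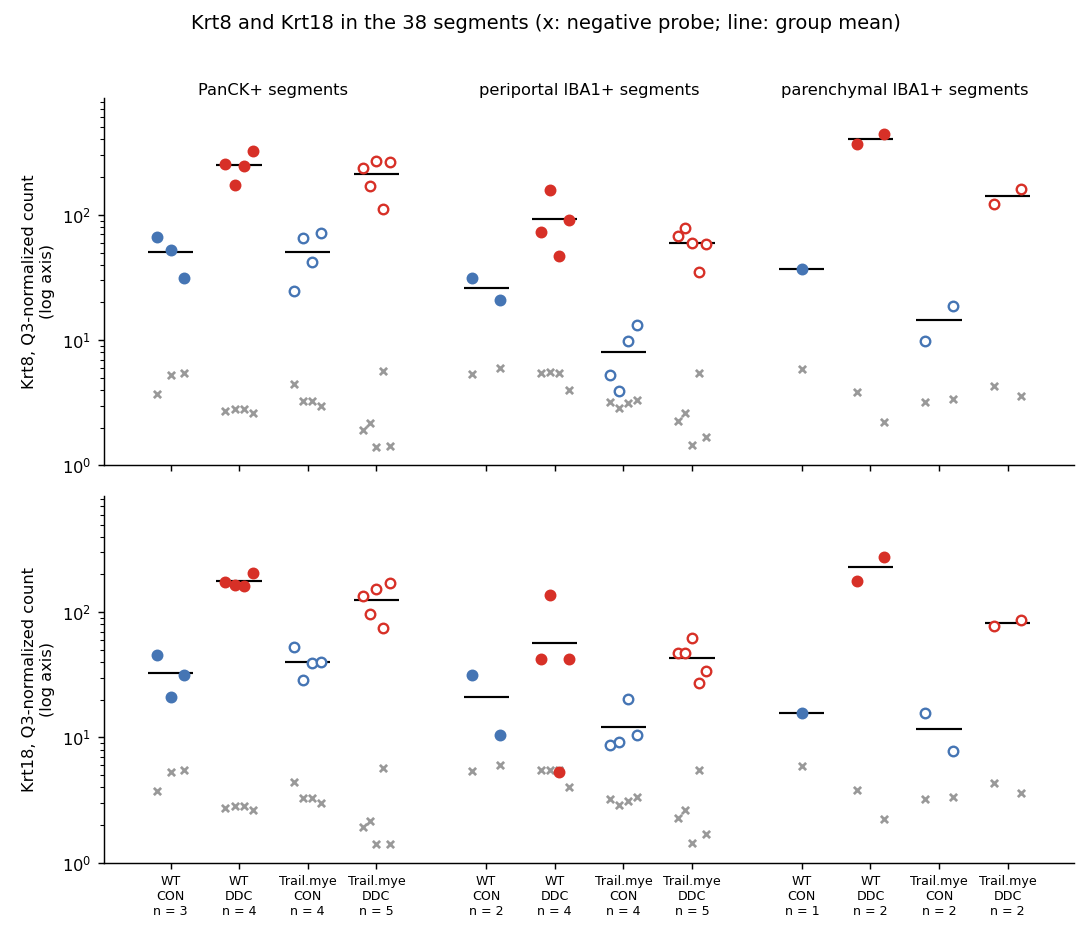
Q3-normalized counts (log axis) of Krt8 (top) and Krt18 (bottom) in each of the 38 segments, by segment class, genotype and diet; blue is the control diet, red the DDC diet, filled circles WT and open circles Trail.mye, horizontal lines are group means and grey crosses the negative probe of the same segment. Mean Krt8 was 8.04 to 50.9 in the control diet groups and 59.7 to 407 in the DDC groups, and 1 Krt18 value (WT DDC periportal IBA1+) sits at the level of the negative probe.

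In PanCK+ segments, chosen for the bile duct epithelium but also holding hepatocyte transcripts, both keratins rose on the DDC diet in both genotypes. The rise was 3.16-fold to 5.15-fold. Krt8 in WT segments read 66.5, 52.5 and 31.5 on the control diet and 255, 174, 247 and 321 on the DDC diet. Krt18 in the same segments read 45.5, 21.0 and 31.5 against 175, 164, 163 and 206. No control segment reached the lowest DDC segment for either gene. The log2 fold change was 2.25 (standard error, SE, 0.42, adjusted p = 0.000251) for Krt8 and 2.36 (0.44, adjusted p = 0.000210) for Krt18, from edgeR's quasi-likelihood test with Benjamini-Hochberg adjustment over all 10547 genes, as for every adjusted p below. Among all genes 0.493% were called higher at an adjusted p under 0.05 in this contrast (0.91% in either direction), and in 5.46% the DDC segments lay wholly above the control segments.

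In Trail.mye PanCK+ segments Krt8 read 24.5, 65.7, 42.0 and 71.4 on the control diet and 236, 172, 271, 112 and 263 on the DDC diet. Krt18 read 52.5, 28.9, 39.4 and 39.9 against 135, 95.9, 152, 74.1 and 171. The groups again did not overlap. The lowest DDC values of both genes came from ROI 35, the most deeply sequenced segment, whose negative probe (5.66) was the highest of its group. The log2 fold change was 2.01 (SE 0.34, adjusted p = 1.60e-05) for Krt8 and 1.66 (0.34, adjusted p = 0.000705) for Krt18. Here 1.43% of all genes were called higher (2.1% in either direction) and 5.72% did not overlap. The median log2 fold change over all genes was -0.17 in WT and 0.18 in Trail.mye PanCK+ segments. With DESeq2's size factors the latter was -0.15, and the keratin folds shifted with it while their direction and calls were kept.

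Genotype left no detected difference in PanCK+ segments. On the control diet the log2 fold change of Trail.mye over WT was 0.02 (95% interval -0.88 to 0.93) for Krt8 and 0.23 (-0.74 to 1.20) for Krt18, both with an adjusted p of 0.995. On the DDC diet it was -0.22 (-0.81 to 0.36, adjusted p = 0.879) for Krt8 and -0.48 (-1.04 to 0.09, adjusted p = 0.616) for Krt18. The diet effect of Trail.mye minus that of WT was -0.24 (-1.32 to 0.83) for Krt8 and -0.71 (-1.83 to 0.41) for Krt18 (both adjusted p = 1.00). In these contrasts 0.218%, 0.152% and 0.114% of all genes were called, in that order. On the control diet the intervals still allow differences of nearly 2-fold in either direction for Krt8. For Krt18 they allow more than 2-fold upwards and somewhat less downwards.

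Markers of other cell types moved with the diet in these segments. The summed level of the 10 fibroblast markers was 84.0 to 170.2 on the control diet and 213 to 536 on the DDC diet, with 4 of 10 markers called higher in WT and 3 of 10 in Trail.mye segments. The 9 hepatocyte markers had 1 called lower in WT (Fabp1) and 3 in Trail.mye segments (Fabp1, Alb and Cyp2e1). Their median log2 fold change was -0.84 in WT and -0.67 in Trail.mye segments, against -0.17 and 0.18 over all genes. Of the 10 cholangiocyte markers, edgeR called 0 in WT (5 at an unadjusted p under 0.05). In Trail.mye segments it called 3 higher (Cldn4, Cldn7 and Epcam), with 9 at an unadjusted p under 0.05. The median log2 fold change of the 10 was 0.90 in WT and 0.93 in Trail.mye segments. The cholangiocyte sum was 644 to 1003 on the control diet and 1626 to 2198 on the DDC diet in WT. In Trail.mye segments it was 571 to 790 and 540 to 1622. The 10 macrophage markers summed to 49.0 to 105 on the control diet and to 111 to 165 on the DDC diet, and 2 of 10 were called higher in Trail.mye segments, as was 1 of 5 neutrophil markers. Their part in the keratin result was not tested.

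In periportal IBA1+ segments, collected around macrophages beside the ducts, edgeR's main test called the rise in Trail.mye mice. Krt8 read 5.25, 3.94, 9.85 and 13.1 on the control diet and 67.4, 78.4, 59.7, 34.7 and 58.5 on the DDC diet in Trail.mye segments, with a log2 fold change of 2.80 (SE 0.37, adjusted p = 1.22e-07, 6.96-fold). Krt18 read 8.75, 9.19, 20.4 and 10.5 against 47.6, 46.9, 61.7, 27.2 and 33.8, with 1.69 (0.37, adjusted p = 0.000905, 3.22-fold). For both genes the diet groups did not overlap, as in 4.04% of all genes. In this contrast 4.2% of all genes were called higher (9.38% in either direction). With every segment thinned to the smallest total of the class, the Krt18 change was no longer called (1.66, adjusted p = 0.127).

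In WT periportal IBA1+ segments Krt8 read 31.5 and 21.0 on the control diet and 73.5, 158, 47.3 and 91.0 on the DDC diet. The log2 fold change of 1.81 (SE 0.58, 95% interval 0.65 to 2.96) did not pass the adjustment (unadjusted p = 0.00279 from edgeR, adjusted p = 0.147), although the groups did not overlap (1.99% of all genes). It was called by DESeq2 (1.92, adjusted p = 0.0240), by limma on log2 Q3-normalized counts plus 1 (1.67, adjusted p = 0.0289) and by edgeR after its filter on low counts (2.13, adjusted p = 0.00348). It was not called with TMM factors (1.94, adjusted p = 0.245), and thinning to the smallest total lowered it to 0.82 (adjusted p = 0.813). Krt18 read 31.5 and 10.5 against 42.0, 137, 5.25 and 42.0, and the groups overlapped (log2 fold change 1.40, SE 0.70, adjusted p = 0.938). Leaving out ROI 3 (control diet) raised the Krt18 value to 2.39 and leaving out ROI 9 (DDC diet) gave 0.56, uncalled in both cases. These values rest on 2 to 6 counts per control segment and on 1 to 30 counts per DDC segment. In this contrast 0.142% of all genes were called higher (1.19% in either direction). The genotypes were not shown to differ in this, since the interaction was 0.99 (-0.47 to 2.45) for Krt8 and 0.29 (-1.38 to 1.96) for Krt18, both with an adjusted p of 1 (0.0569% of all genes called). After thinning the Krt8 interaction was 2.86 (adjusted p = 0.405).

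On the control diet Krt8 was lower in all 4 Trail.mye than in both WT periportal IBA1+ segments, with a log2 fold change of -1.63 (95% interval -3.00 to -0.27). It did not pass the adjustment (unadjusted p = 0.0200 from edgeR, adjusted p = 1). In 7.93% of all genes the Trail.mye segments lay wholly below the WT segments, and 0.199% were called. A single count was worth 5.25 in both WT segments and 1.75 or less in the Trail.mye segments, so that the WT values of 31.5 and 21.0 stand for 6 and 4 counts. After thinning to the smallest total the difference was called, at -3.85 (adjusted p = 0.0115), where the median over all genes was -0.84. Krt18 differed by -0.66 (-2.19 to 0.86). On the DDC diet the difference was -0.64 (-1.29 to 0.00) for Krt8 and -0.37 (-1.14 to 0.40) for Krt18 (both adjusted p = 1, 0.019% of all genes called).

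Markers of other cell types moved with the diet here as well. Hepatocyte markers fell in 6 of 9 cases in WT (1.04% of all genes called lower) and in 9 of 9 in Trail.mye segments (5.18%), and their sum was 8566 to 13773 on the control diet and 1098 to 4685 on the DDC diet. Fibroblast markers rose in 6 of 10 cases in WT and 8 of 10 in Trail.mye segments. Macrophage markers were called lower in 1 of 10 cases in WT and 2 of 10 in Trail.mye segments (3 and 5 at an unadjusted p under 0.05), and 1 of 5 neutrophil markers was called higher in Trail.mye segments. The cholangiocyte sum was 40.7 to 57.8 on the control diet and 117 to 378 on the DDC diet, with 1 of 10 markers called higher in WT (Spp1) and 2 of 10 in Trail.mye segments (Spp1 and Epcam). The defining duct keratins Krt19 and Krt7 were not called, with log2 fold changes of 0.40 and 0.97 in WT and of 0.14 and 0.52 in Trail.mye segments. Krt19 was at 1 count in 3 of 6 control and 3 of 9 DDC segments, and Krt7 in 2 of 6 and 2 of 9. Each exceeded the negative probe in 3 of 6 control and 6 of 9 DDC segments, so these folds are poorly measured. In Trail.mye mice both keratins therefore rose in segments whose hepatocyte markers fell. The part of duct cells and of the other cell types in this was not tested.

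In the parenchyma both keratins rose about 10-fold on the DDC diet. In IBA1+ segments of the lobule Krt8 read 36.8 (WT) and 9.92 and 18.8 (Trail.mye) on the control diet. On the DDC diet it read 368 and 446 in WT and 123 and 160.2 in Trail.mye segments. Krt18 read 15.8 in WT and 15.8 and 7.74 in Trail.mye segments on the control diet. On the DDC diet it read 179 and 278 in WT and 77.0 and 86.7 in Trail.mye segments. Every DDC segment lay above every control segment for both genes, as in 1.85% of all genes.

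Averaged over both genotypes, the log2 fold change was 3.38 (SE 0.34, adjusted p = 1.38e-11) for Krt8 and 3.34 (0.40, adjusted p = 4.50e-09) for Krt18 (10.4-fold and 10.1-fold). By size they ranked 6 and 7 among all genes, of which 0.303% were called higher (0.91% in either direction). The test rests on 7 segments with 3 residual degrees of freedom, including 1 WT control segment. Since edgeR also draws its estimate of the spread from the other genes, its p-values and intervals are narrower than these 3 alone would give. Total counts went the other way in Trail.mye mice, with 252265 and 265759 on the control diet and 33832 and 48357 on the DDC diet. With every segment thinned to the smallest total of the class, the folds were 3.17 (Krt8, adjusted p = 0.0638) and 4.11 (Krt18, adjusted p = 0.762) on the log2 scale and were no longer called.

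Markers of cell types were read in the same parenchymal segments, and the part of these cells in the keratin rise was not tested. The 10 cholangiocyte markers summed to 38.1 to 57.8 on the control diet and to 52.5 to 126 on the DDC diet. Their median log2 fold change was -0.41, against -0.20 over all genes. In the 4 DDC parenchymal segments Krt7 was at 1 count in 4 and Krt19 and Epcam in 3 each, so these folds are poorly measured. The log2 fold change was -0.32 for Krt19, -1.45 for Krt7 and -0.37 for Epcam (adjusted p = 0.999 each). Spp1, which is not restricted to duct cells, was the only cholangiocyte marker called (log2 fold change 3.49). Hepatocyte markers summed to 11930 to 12973 on the control diet and to 3757 to 13722 on the DDC diet, with 3 of 9 called lower (Fabp1, Cyp2e1 and Ttr). Their median log2 fold change was -0.57, against -0.20 over all genes. Of the macrophage and of the fibroblast markers, edgeR called 0 of 10 each, with 1 and 3 at an unadjusted p under 0.05.

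Within the parenchyma both keratins read higher in the 2 WT than in the 2 Trail.mye DDC segments, as did 13.4% of all genes. Averaged over both diets, Trail.mye minus WT was -1.43 (95% interval -2.29 to -0.57) on the log2 scale for Krt8, which did not pass the adjustment (unadjusted p = 0.00147 from edgeR, adjusted p = 0.282), and -0.96 (-2.14 to 0.21) for Krt18. Of all genes 0.247% were called. DESeq2 called the Krt8 difference (-1.38, adjusted p = 0.0172), as did edgeR without the Trail.mye DDC segment of ROI 38 (-1.54, adjusted p = 0.0269). The hepatocyte marker sum was 10256 and 13722 in the WT DDC segments and 3757 and 5446 in the Trail.mye DDC segments, and its part in the difference was not tested.

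IBA1+ segments were then compared by location. On the DDC diet both keratins were lower beside the ducts than in the parenchyma, with a log2 fold change of -1.70 (SE 0.26, adjusted p = 4.67e-06) for Krt8 and -1.49 (0.30, adjusted p = 0.000639) for Krt18, as the mean of both genotypes (2.18% of all genes called lower). In WT the 4 periportal Krt8 values (47.3 to 158) lay below both parenchymal ones (368 and 446), and in Trail.mye mice the 5 periportal values (34.7 to 78.4) lay below 123 and 160.2. Krt18 did not overlap either, and periportal segments lay wholly below parenchymal ones in 10.8% of all genes in WT and 7.06% in Trail.mye mice. On the control diet the difference was -0.63 (-1.64 to 0.38) for Krt8 and 0.29 (-1.01 to 1.60) for Krt18 (both adjusted p = 1, 0.0569% of all genes called). The difference between the diet effects of both locations, a test added after the data were seen, was -1.07 (-2.22 to 0.07, adjusted p = 1.00) for Krt8 and -1.78 (-3.20 to -0.37, unadjusted p = 0.0141 from edgeR, adjusted p = 0.987) for Krt18, and 0.0284% of all genes were called. Hepatocyte markers differed in the same direction as the keratins on the DDC diet, with 8 of 9 lower in periportal segments. Cholangiocyte markers differed the other way, with a median log2 fold change of 1.02, against 0.19 over all genes. So did the fibroblast markers (median 1.67) and the neutrophil markers (median 0.76). Of the macrophage markers 3 of 10 were called lower in periportal segments (median -0.06). The part of these cells in the keratin difference was not tested.

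PanCK staining binds keratins and chose the PanCK+ segments, so that a higher keratin level in them describes the capture. In the 15 periportal ROIs with both segments, Krt8 was higher in the PanCK+ segment in 15 and Krt18 in 14, with ROI 3 (WT CON, 21.0 against 31.5) as the exception. The PanCK+ to IBA1+ ratio had a median of 3.53 for Krt8 (1.11 to 16.7) and 3.00 for Krt18 (0.667 to 31.0). It was smallest for Krt8 in ROI 9, where the IBA1+ segment read 158 and the PanCK+ segment 174. The highest Krt18 ratio came from ROI 11, where the IBA1+ segment held 1 count. Over all periportal segments the log2 fold change was 1.79 (SE 0.20) for Krt8 and 1.52 (0.21) for Krt18, among 6.55% of genes called higher. The duct keratins had 2.68 (Krt19), 1.64 (Krt7) and 0.84 (Krt23). The diet effect did not differ detectably between the classes, with PanCK+ minus IBA1+ at -0.17 (-1.06 to 0.71) for Krt8 and 0.46 (-0.56 to 1.48) for Krt18 (both adjusted p = 1.00, 0.218% of all genes called).

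**Figure D2:**
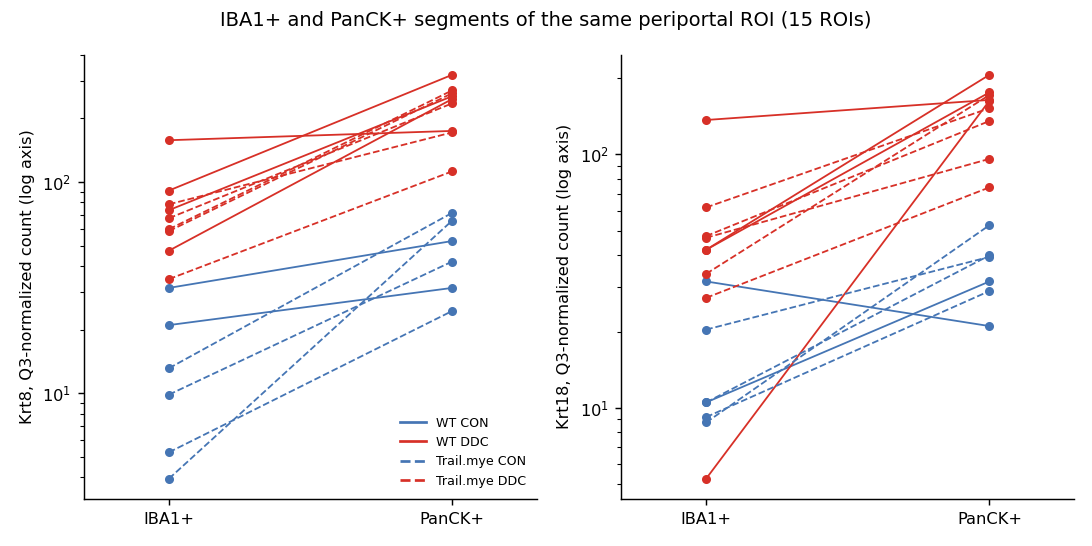
Q3-normalized counts (log axis) of Krt8 (left) and Krt18 (right) in the IBA1+ and the PanCK+ segment of each of the 15 periportal ROIs that hold both, with 1 line per ROI (blue control diet, red DDC diet, solid WT, dashed Trail.mye). All 15 Krt8 lines and 14 of 15 Krt18 lines rise towards PanCK+, and the flattest Krt8 line is ROI 9 (158 against 174).

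**Figure D3:**
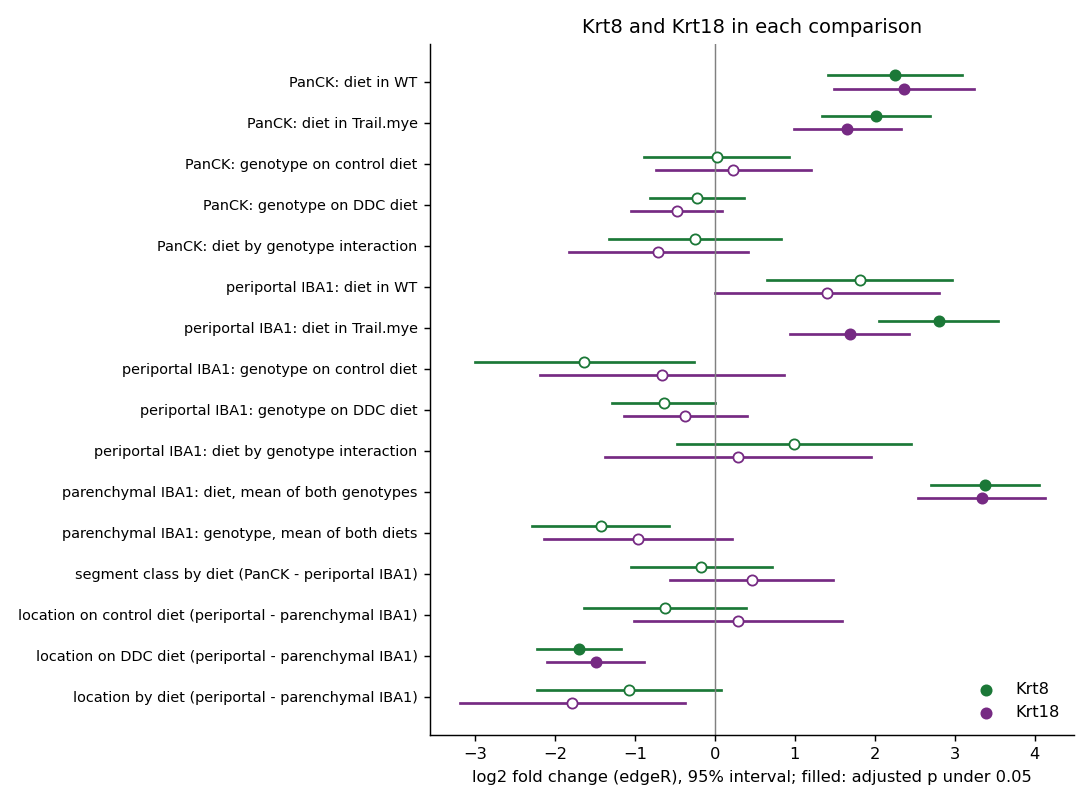
Log2 fold changes of Krt8 (green) and Krt18 (purple) with 95% intervals from edgeR in each comparison, filled where the adjusted p is under 0.05. The diet contrasts lie to the right of 0 (1.40 to 3.38), the genotype and interaction contrasts have open symbols, and the location contrast on the DDC diet lies to the left (-1.70 and -1.49).

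No other keratin passed edgeR's threshold in a diet contrast. Besides Krt8 and Krt18, the tables hold 6 keratin genes (Krt2, Krt7, Krt19, Krt23, Krt75 and Krt77), and edgeR called 0 of 6 in each of the 5 diet contrasts. In PanCK+ segments 2 of 6 (Krt19 and Krt7) had an unadjusted p under 0.05 in each genotype, and 0 of 6 in the IBA1+ diet contrasts. Krt19, the duct keratin, had a log2 fold change of 1.69 (SE 0.53, adjusted p = 0.130) in WT PanCK+ segments and 0.85 (0.35, adjusted p = 0.263) in Trail.mye ones. In WT, Krt19 was called by DESeq2 and by edgeR after its filter on low counts, while DESeq2 called 0 of 6 in the other 4 contrasts and gave no adjusted p for 3 to 6 of them. Krt7 had 1.29 (0.59) and 0.86 (0.38), and Krt23 0.79 (0.60) and 0.70 (0.44). The median over the 6 genes was 0.69 in WT and 0.52 in Trail.mye PanCK+ segments, against -0.17 and 0.18 over all genes. In the parenchymal diet contrast it was -0.28 against -0.20. In the genotype contrasts edgeR and DESeq2 called 0 of 6 as well, with 0 at an unadjusted p under 0.05 by edgeR. Here DESeq2 gave no adjusted p for 0 to 6 of them, depending on the contrast. Krt20 was not analysed here. Whether Krt8 and Krt18 differ from Krt19 in their diet effect was not tested.

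Genes of the other Mallory-Denk body components were then followed from a list of 18, of which 16 were in the tables. Among them are the autophagy adaptor p62 (Sqstm1) and its relative Nbr1, ubiquitin and ubiquitin-like genes (Ubb, Ubd), the chaperones Hspb1, Cryab, Hspa8 and Hsp90aa1, the cross-linking enzyme Tgm2, the segregase Vcp, immunoproteasome subunits (Psmb8, Psmb9, Psmb10) and the stress enzymes Nqo1 and Hmox1. In WT PanCK+ segments 1 of 16 rose, the constitutive chaperone Hspa8 (log2 fold change 1.70, SE 0.47, adjusted p = 0.0460), and its call was kept with TMM factors, DESeq2 and filterByExpr. In the other 4 diet contrasts edgeR called 0 of 16, with 1, 0, 4 and 4 at an unadjusted p under 0.05 in Trail.mye PanCK+, WT periportal, Trail.mye periportal and parenchymal segments. DESeq2 called 0 there as well, though it gave no adjusted p for 3 to 12 of the 16. In the genotype contrasts edgeR called 0 of 16 in each (0 or 1 at an unadjusted p under 0.05). Tgm2 was lower in Trail.mye than in WT PanCK+ segments on the DDC diet by DESeq2 and by edgeR after its filter, while the main test gave -0.92 (SE 0.29, adjusted p = 0.260).

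Sqstm1 and Ubd were picked from the list after their values were seen. Sqstm1, whose protein is a main component of the bodies, had log2 fold changes of 0.27 (SE 0.46) in WT and 0.92 (0.34, adjusted p = 0.177) in Trail.mye PanCK+ segments. In IBA1+ segments it had -0.93 (0.53) in WT periportal, 0.84 (0.30, adjusted p = 0.0640) in Trail.mye periportal and 0.61 (0.33) in parenchymal segments. Among genes that pass edgeR's filter on low counts, it was called in both Trail.mye contrasts. In the parenchyma the interferon-induced ubiquitin-like Ubd had 1.74 (0.62, adjusted p = 0.627) and the heme oxygenase Hmox1 1.38 (0.43, adjusted p = 0.154, called after the filter). The list's median in the parenchymal contrast was 0.25 against -0.20 over all genes, and in WT and Trail.mye PanCK+ segments 0.47 and 0.31 against -0.17 and 0.18. By location on the DDC diet 2 of 16 were called lower in periportal IBA1+ segments, as were 2.18% of all genes. They were Hmox1 (-1.39, adjusted p = 0.00163) and Hsp90aa1 (-1.31, adjusted p = 0.0441).

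Linkers that tie keratin filaments to membranes and to each other were given as a list of 14 (11 measured), among them the plakins Plec, Eppk1 and Ppl, desmosome proteins (Dsp, Jup, Pkp2, Dsg2, Dsc2) and keratin-binding 14-3-3 proteins (Ywhae, Ywhaz, Ywhaq). EdgeR and DESeq2 called 0 of 11 in all 5 diet contrasts (DESeq2 gave no adjusted p for 1 to 10 of the 11), with 1, 1, 0, 1 and 3 at an unadjusted p under 0.05 by edgeR (WT and Trail.mye PanCK+, WT and Trail.mye periportal IBA1+, and parenchymal IBA1+ segments). In contrast, 9 of 11 were called higher in PanCK+ than in periportal IBA1+ segments, as were 6.55% of all genes. The desmosomal cadherin Dsg2 led (log2 fold change 2.71, adjusted p = 1.10e-20), with desmoplakin Dsp at 1.13 and periplakin Ppl at 1.15.

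**Figure D4:**
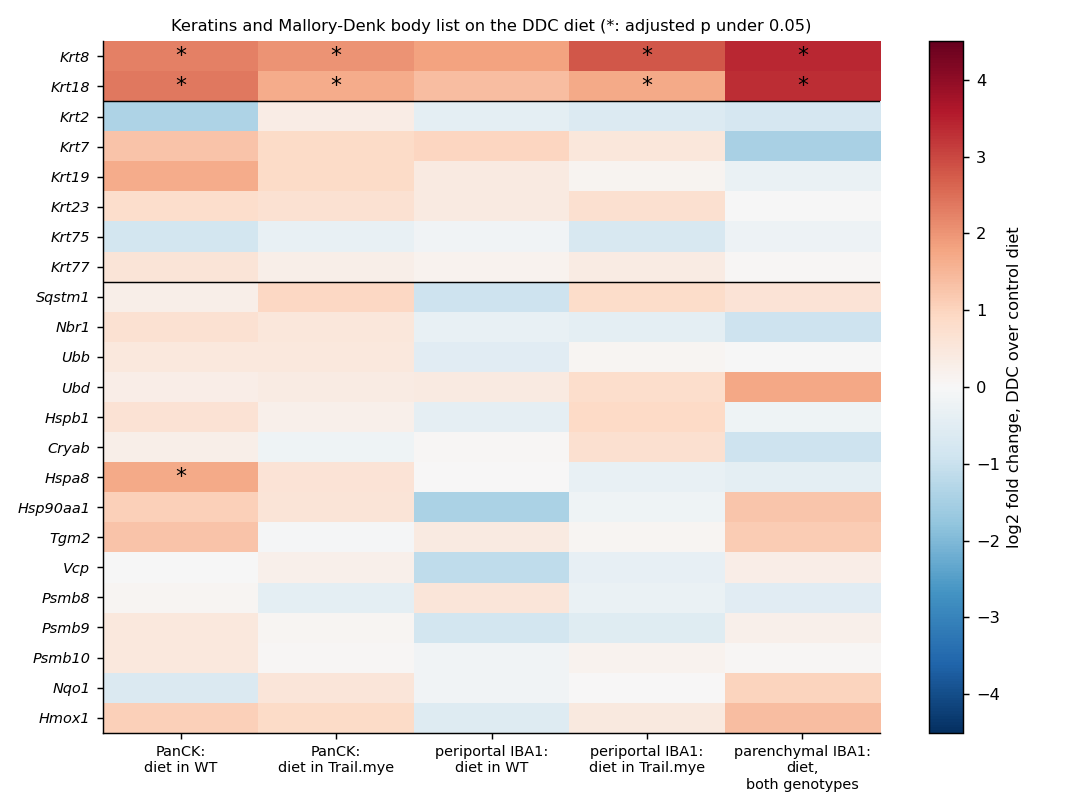
Log2 fold changes of DDC over control diet (colour) for Krt8 and Krt18 (top), the 6 other keratins (middle) and 15 of the 16 measured genes of the Mallory-Denk body list (bottom) in the 5 diet contrasts, with an asterisk where edgeR's adjusted p is under 0.05. Krt8 and Krt18 carry an asterisk in 4 of 5 columns, Hspa8 in 1 (WT PanCK+), and no other gene shown in any.

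The ratio of Krt8 to Krt18 was taken within each segment from the counts, where scaling cancels. The probes can differ in efficiency, so its size is no ratio of transcripts and only its differences are read. Over all 38 segments 4679 Krt8 and 3021 Krt18 counts were summed, a ratio of 1.55. The median per segment was 1.55 as well, with 0.429 (Trail.mye CON periportal IBA1+, ROI 27, 3 against 7 counts) as the lowest and 9.00 (WT DDC periportal IBA1+, ROI 11, 9 against 1 count) as the highest. Both extremes came from few counts.

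In DDC segments the ratio was above 1 in 21 of 22 segments, with a median of 1.60, and the 95% exact binomial interval held 1 in 5 of 22. In the 9 DDC PanCK+ segments it ran from 1.06 to 1.79 (SD 0.23 on the log2 scale), and in the 4 DDC parenchymal segments from 1.59 to 2.06. In control segments it was above 1 in 9, equal to 1 in 2 and below 1 in 5 of 16, with a median of 1.16. The SD on the log2 scale was 0.92 in control against 0.61 in DDC segments. Control segments held 3 to 34 counts of Krt8 and 2 to 31 of Krt18, and the interval held 1 in 13 of 16. These intervals cover counting error only.

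By group, the control ratios were 1.46, 2.50 and 1.0 in WT PanCK+ and 0.467, 2.27, 1.07 and 1.79 in Trail.mye PanCK+ segments, 1.0 and 2.0 in WT and 0.60, 0.429, 0.484 and 1.25 in Trail.mye periportal IBA1+ segments, and 2.33 (WT), 0.630 and 2.43 (Trail.mye) in parenchymal segments. The DDC ratios were 1.45, 1.06, 1.52 and 1.56 in WT PanCK+ and 1.74, 1.79, 1.78, 1.52 and 1.53 in Trail.mye PanCK+ segments. In periportal IBA1+ segments on the DDC diet they were 1.75, 1.15, 9.00 and 2.17 in WT and 1.42, 1.67, 0.968, 1.28 and 1.73 in Trail.mye mice.

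None of 7 comparisons of the ratio passed (two-sided exact permutation tests, Benjamini-Hochberg over the 7). The largest difference was that of diet in periportal IBA1+ segments, 0.98 on the log2 scale with splits within genotype (exact permutation p = 0.0566, adjusted p = 0.25), where the summed counts gave 0.695 on the control diet (41 against 59 counts) and 1.37 on the DDC diet. Diet in PanCK+ segments gave 0.16 (exact permutation p = 0.596), and in Trail.mye PanCK+ segments alone 0.48 (exact permutation p = 0.365). Genotype on the DDC diet gave 0.27 in PanCK+ segments (exact permutation p = 0.0714) and -0.86 in periportal IBA1+ segments (exact permutation p = 0.143). The latter was -0.24 without the WT segment of ROI 11 and -0.19 over segments with 10 or more counts of both genes. PanCK+ against IBA1+ in the same ROI gave 0.13 (exact permutation p = 0.665), and periportal against parenchymal IBA1+ segments gave -0.39 (exact permutation p = 0.297). Adjusted values ran from 0.25 to 0.665. In 3 of the 7 comparisons only 126 arrangements existed, so that these could not pass the adjustment on their own. No change of the ratio was detected, at counts that left the control ratios wide.

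**Figure D5:**
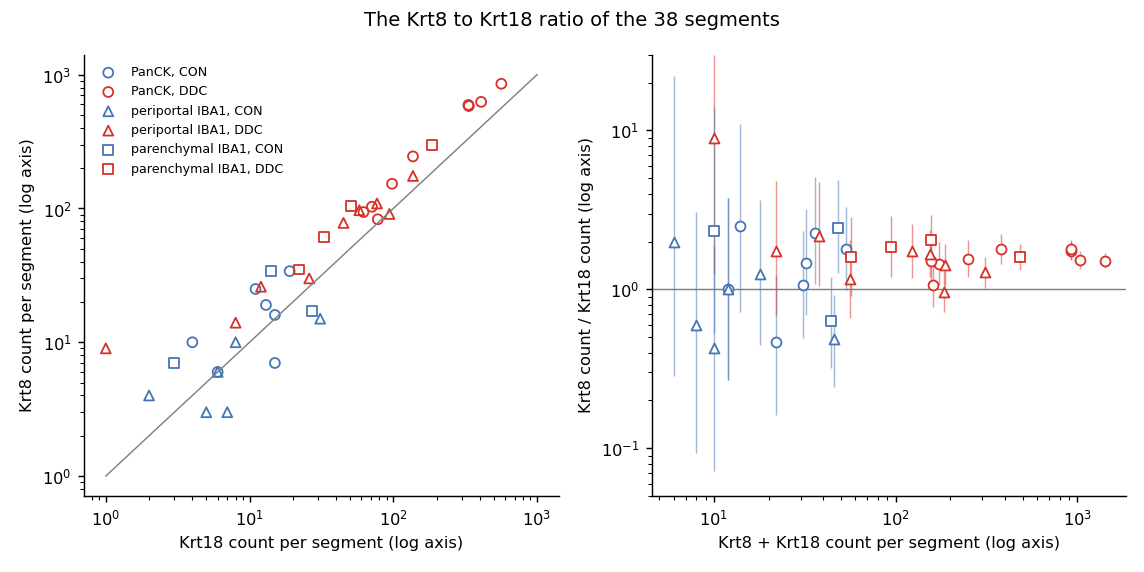
Left, Krt8 against Krt18 count in each of the 38 segments (log axes; the line marks equal counts). Right, the ratio of both counts (log axis) against their sum (log axis), with 95% exact binomial intervals cut at 0.05 and 30; circles are PanCK+, triangles periportal IBA1+ and squares parenchymal IBA1+ segments, blue control and red DDC diet. The DDC PanCK+ segments lie between 1.06 and 1.79, and the widest intervals belong to segments with few counts.

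Log2 levels of both genes went together across segments. Pearson's r was 0.89 over all 38 segments, 0.89 over the 16 PanCK+, 0.95 over the 7 parenchymal and 0.75 over the 15 periportal IBA1+ segments. These are descriptions, since the segments share diet groups and depth. Against 3088 other genes that averaged at least 10 counts per segment, each member was the nearest to the other over all 38 segments. Next to Krt8 came Tpm1 (r = 0.86), Lcn2 (0.85), Anxa2 (0.84) and Cd9 (0.81), and next to Krt18 came Lcn2 (0.81), Cp (0.81), Cd9 (0.81) and Anxa2 (0.78). Tpm1 is an actin-binding tropomyosin, Lcn2 and Cp are secreted iron-binding and copper-carrying acute phase proteins, Anxa2 a membrane-binding annexin and Cd9 a tetraspanin. Krt19 had r = 0.43 with Krt8 (rank 250) and Alb -0.48.

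Within the 16 PanCK+ segments other genes came nearer. The nearest to Krt8 were Tmem176b (r = 0.97), Cd9 (0.96), Sparc (0.96), Lcn2 (0.95) and Actb (0.95), with Krt18 at rank 38. The nearest to Krt18 were S100a11 (0.96), Sparc (0.95, one of the fibroblast markers above), Anxa2 (0.94) and the pericyte gene Rgs5 (0.94), with Krt8 at rank 25. Krt19 stood at r = 0.81 (rank 153) with Krt8 and 0.66 (rank 465) with Krt18.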

How the data were processed

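Probe barcodes of the GeoMx mouse whole transcriptome panel were counted in 38 segments of fixed liver sections. The deposited table of expected counts holds the authors' probe counts per gene and segment, sequenced on a NextSeq2000 after 18 PCR cycles. All values are 1 or higher, and 3 genes and the negative probe have values that are not whole. The values of the genes were rounded for the tests, and those of the negative probe were left as they are. The deposited Q3-normalized table holds a signal, which equals each count times 1 factor per segment that the authors set so that all segments share the same 75th percentile. The submitters' processing notes name bcl2fastq and mm10, and the methods a custom R workflow of the authors with limits of quantitation, with an aligner not given in the sources used here. Groups follow the labels for genotype, diet, location and stained protein, and all sample columns were matched to labels by name.

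Counts were tested with edgeR 4.0.16 (quasi-likelihood test, upper quartile factors at the 75th percentile, R 4.3.3) in separate fits of PanCK+, periportal IBA1+ and parenchymal IBA1+ segments (12, 11 and 3 residual degrees of freedom), of both periportal classes and of both IBA1+ locations. In each fit edgeR shared its estimate of the spread across genes, so p-values and intervals rest on more than these residual degrees of freedom. Benjamini-Hochberg adjustment ran over 10547 genes, and an adjusted p under 0.05 was called. The ratio of both counts was compared with two-sided exact permutation tests (SciPy 1.17.1). Alternatives were TMM factors, DESeq2 1.42.0, limma 3.58.1 on log2 values with pseudocounts of 1 and 0.5, a filter on low counts, only the groups compared, counts of 1 set to 0, thinning to the smallest total, and leaving out each segment. The edgeR fits kept the only WT CON parenchymal segment throughout, since it is alone in its group. The fits were also run on simulated counts, with an outcome not reported here. Those counts were drawn independently for each segment, so they cannot show the effect of segments that share a mouse. Intervals of ratios (95%, exact binomial) cover counting error only.

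Segments of 1 ROI share a number in the labels. Deviations from group means correlated between them with a median r of 0.032 (-0.016 to 0.528 over 15 ROIs, over 0.1 in 5), so the class fits were unblocked and the ROI block was an alternative. Both members, all gene lists and the markers were chosen with earlier results of these data known. Named were Krt8 and Krt18, the other keratins, called members of the lists, and the 5 genes nearest in correlation among genes with a mean count of at least 10. Tnfsf10, Krt20, 2 genes of the Mallory-Denk list (Hspa1a and Hspa1b) and 3 of the linker list (Evpl, Pkp3 and Dst) were not analysed here. Promoter sequences are RefSeq's (GRCm38.p6), and both members matched by symbol. A few single-gene values are not reported here.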

Additional observations from a re-analysis of the deposited data

How the results depend on the processing

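Of 283 values of the keratin contrasts and ratio comparisons under other settings, 268 kept their direction and side of the threshold. So did 621 of 635 with 1 segment or ROI left out. The 283 include ratios of summed counts, which were not tested and were judged by the size of their move alone. All calls of the diet contrasts and of location on the DDC diet held with each segment that was left out (PanCK+ diet, WT: Krt8 2.03 to 2.55, Krt18 2.15 to 2.73). The only WT CON parenchymal segment was not left out of these fits, so the parenchymal and location calls were not checked without it. Other settings called Krt8 for diet in WT periportal IBA1+ segments (DESeq2 1.92; limma 1.67 and 1.69 with pseudocounts of 1 and 0.5; filterByExpr 2.13) and for genotype in the parenchyma (DESeq2 -1.38; segments left out -1.69 to -1.24, called only without Trail.mye DDC ROI 38, -1.54). Thinning to the smallest total, which leaves fewer counts, ended the calls of diet for Krt18 in Trail.mye periportal segments (1.66) and for Krt8 (3.17) and Krt18 (4.11) in the parenchyma, called Krt8 for genotype on the control diet in periportal IBA1+ segments (-3.85), and turned the sign of Krt8 for class by diet (0.096).

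Signs that turned belonged to uncalled values, and the cause was not tested. With limma, genotype on the control diet was -0.030 and -0.031 for Krt8 in PanCK+ segments, and genotype on the DDC diet 0.27 and 0.29 for Krt18 in periportal IBA1+ segments (pseudocounts 1 and 0.5). The ratio for diet in PanCK+ segments was -0.024 over segments with 10 or more counts of both genes. Leaving out segments gave -0.21 to 0.31 for Krt8 genotype on the control diet in PanCK+ segments. For Krt18 in periportal IBA1+ segments it gave -1.25 to 0.33 (genotype, control diet), -0.73 to 0.47 (genotype, DDC diet) and -0.70 to 1.13 (interaction), with the ends that turned or moved most without WT CON ROI 3 (0.33 and -0.70) and WT DDC ROI 9 (0.47 and 1.13). Class by diet gave -0.33 to 0.074 for Krt8 and -0.15 (without ROI 3) to 0.90 for Krt18, Krt18 by location on the control diet -0.20 to 0.58, the ratio for diet in PanCK+ segments -0.062 to 0.34, and the ratio of PanCK+ to IBA1+ segments -0.033 to 0.32. With the ROI as a replicate block, the class difference was 1.78 for Krt8 and 1.56 for Krt18 and class by diet -0.022 and 0.64, and no call changed.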
